A study of Mus musculus with 26 samples.

Results

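Colon tissue from mice fed a diet with GW3965 was compared at day 22 of an AOM-DSS course with colon tissue from untreated mice on the same diet, and the comparison holds 7 of the 26 bulk RNA-seq samples of the series. GW3965 is a synthetic agonist of the liver X receptors (LXRs). AOM (azoxymethane) is a colon carcinogen and DSS (dextran sulfate sodium) is a polymer in the drinking water that injures the colonic epithelium. The animals were male C57BL/6J mice aged about 10 weeks at the start, and biopsies came from the distal colon. The animals of the 3 day 22 samples had received 10 mg/kg AOM and a single 7-day DSS cycle, with the diet begun on the day of AOM. Those of the 4 untreated samples received neither agent and ate the GW3965 diet for 22 days (2 samples) or 43 days (2 samples), and both sets were treated as day 0, so diet time was matched for only 2 of them. Members were chosen by sample title. The characteristics of 1 untreated sample, 43-day replicate 2, name the other diet, and its *Abcg1* level of 76.5 CPM (counts scaled to the normalised library size) lay among those of the other untreated GW3965 samples (74.0 to 89.3 CPM) and above every untreated or day 22 sample of the standard diet (7.38 to 25.3 CPM). All day 22 samples came from cage B and all untreated samples from cage F, so cage and treatment cannot be told apart. The study's reporting statement says that a few animals were pooled for each bulk RNA-seq sample, whereas a figure legend gives 3 to 4 mice per timepoint. The labels do not say how many animals a sample holds. Samples are therefore not taken here as single mice, and p-values measure the spread between samples.

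LXRs are nuclear receptors that bind oxysterols and switch on genes of cholesterol export and fatty acid synthesis, among them *Abca1*, *Abcg1*, *Abcg5*, *Abcg8* and *Srebf1*. In the gut they are active in enterocytes and in macrophages. DSS strips epithelium from the distal colon, and the mucosa then fills with neutrophils, monocytes and lymphocytes while crypt cells rebuild the lining. Interferons released in such tissue act through STAT and IRF proteins on short promoter motifs, and they raise antiviral genes, chemokines that draw T cells, and the machinery that presents peptides on MHC molecules.

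Total counts ran from 18420894 to 25358377 in the day 22 samples and from 18328026 to 20521591 in the untreated samples. RNA integrity numbers were 9.6, 9.3 and 9.1 at day 22 and 10 in every untreated sample. Ribosomal protein genes held 6.67, 7.21 and 10.7% of counts at day 22 against 5.59 to 6.51% untreated, and mitochondrial genes 7.56 to 9.80% against 4.69 to 6.02%. The groups did not overlap in any of these 3 measures, and the model carried the ribosomal percentage as a term. The posterior Hox gene *Hoxb13*, a marker of distal colon, stood at 199 to 253 CPM at day 22 and 443 to 748 CPM untreated.

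At day 22 on the GW3965 diet, 2141 of 17047 tested genes (12.6%) differed from untreated at a Benjamini-Hochberg adjusted P below 0.05 in edgeR's quasi-likelihood test, 1550 higher (9.09%) and 591 lower (3.47%). The rise was larger in extent as well as number: 1151 of the higher genes exceeded 1 log2 unit and 325 exceeded 3, against 285 and 25 of the lower genes. The median log2 fold change over all genes was 0.02. CPM values of the 3 day 22 and 4 untreated samples did not overlap for 2123 of the 2141 genes, against 48.2% of all tested genes. The count depended on the libraries. It was 910 without day 22 replicate 1, 1130 without day 22 replicate 2, 1406 without untreated 43-day replicate 1 and 1244 without untreated 43-day replicate 2, the sample with the conflicting label. Against the untreated samples of matched diet time alone (22 days, n = 2) it was 400, against the 43-day samples alone 878, and without the ribosomal term 3516. In bulk tissue, fewer cells of a type and less RNA per cell cannot be told apart.

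**Figure D1:**
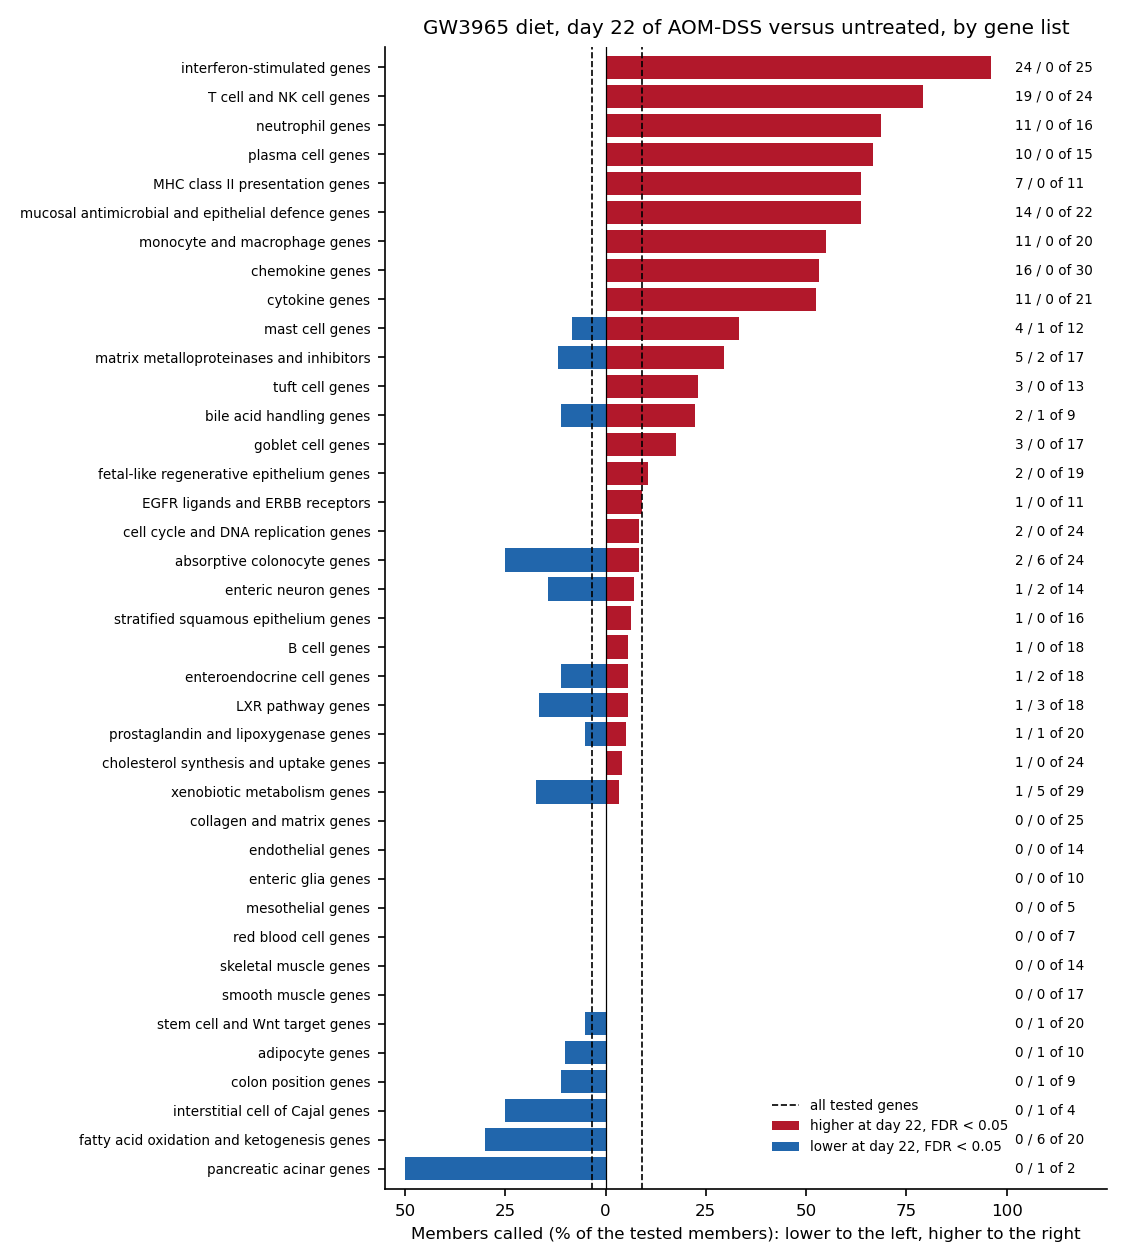
Share of the tested members of 39 gene lists called higher (red, right) or lower (blue, left) at day 22 on the GW3965 diet, in per cent of members. Dashed lines give the share of all 17047 genes called (9.09% higher, 3.47% lower), and the counts at the right are higher / lower of tested. Interferon-stimulated, T cell and NK cell, neutrophil and plasma cell genes head the chart, and fatty acid oxidation and absorptive colonocyte genes lie on the lower side.

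The genes with the smallest P among those higher included secreted and surface proteins of the epithelium that were close to silent in the untreated colon. *Retnlb* (chr16:48816856-48818892), which encodes the goblet cell protein RELMβ, stood at 336, 1093 and 1034 CPM in the 3 day 22 samples and at 0 to 0.197 CPM in the 4 untreated samples. Its log2 fold change was 11.97 ± 1.09 (SE; adjusted P = 4.66e-06), the largest called in the comparison. *Plet1* (chr9:50494525-50505482), a membrane-anchored epithelial protein, reached 424, 215 and 619.6 CPM against 1.19 to 2.04 CPM, a change of 7.74 ± 0.66 (adjusted P = 2.68e-06). Every day 22 value of both genes lay more than an order of magnitude above every untreated value. *Ceacam12*, a member of the carcinoembryonic antigen family, rose from 0 to 0.173 CPM to 15.8, 12.3 and 47.5 CPM (log2 fold change 7.88 ± 0.76). *Ang4*, an antimicrobial ribonuclease of goblet and Paneth cells, was at 86.97, 1120 and 762 CPM against 0.0497 to 1.39 CPM (log2 fold change 9.54 ± 1.37, adjusted P = 0.000218), with replicate 1 the lowest for it as for *Retnlb*.

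Some Ly6-like and small proline-rich transcripts shared this on-off form. *Gml* and *Sprr2k* had no count in any untreated sample and 91 to 145 and 46 to 215 counts at day 22. Set against a floor of 3 counts over the untreated group, these were at least 158-fold and at least 164-fold higher. *Sprr2h* was at 26.7, 8.496 and 57.3 CPM against 0 to 0.173 CPM (adjusted P = 0.000194). Small proline-rich proteins are cross-linked into the envelope of stressed epithelium, and their genes lie in 1 cluster and are near copies of each other, so the division of reads among them is uncertain. Of 14 tested members, a list drawn up after their values were seen, 6 rose and 0 fell (median log2 fold change 3.58), with 3 called without day 22 replicate 1 or either 43-day untreated sample. *Sprr2b* rose by 4.29 ± 0.86 and *Sprr1a* by 4.11 ± 1.12 on the log2 scale.

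Among the other genes that led by P, *Prdm1*, the transcription factor BLIMP1 of plasma cells and effector T cells, was at 17.4, 14.3 and 21.4 CPM against 2.46 to 4.16 CPM (log2 fold change 2.25 ± 0.23, adjusted P = 1.18e-05). *Zc3h12a*, an RNase that degrades inflammatory mRNAs, was at 124, 98.97 and 167 CPM against 17.4 to 23.5 CPM (2.58 ± 0.26). *Tnfrsf8* (CD30, a receptor of activated lymphocytes) rose from 0.476 to 1.06 CPM to 22.4, 24.7 and 32.9 CPM. All 3 came from genes ranked by P among those whose groups did not overlap, which held for 48.2% of all tested genes. *Ubd*, a ubiquitin-like modifier induced by interferon-γ and TNF, stood at 433, 176 and 427 CPM against 3.03 to 8.01 CPM (5.26 ± 0.60). *Slfn4*, a schlafen gene of myeloid cells, *Xdh*, xanthine dehydrogenase, and *Lgals9*, galectin-9, rose by 3.95, 2.07 and 2.02 on the log2 scale, each with an adjusted P of 5.81e-05. Of the 8 schlafen genes tested 6 rose and 0 fell.

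Interferon-stimulated genes rose almost as a block: 24 of 25 tested members were higher and 0 lower, with a median log2 fold change of 2.45. *Isg15*, a ubiquitin-like antiviral protein, was at 108, 49.5 and 72.6 CPM at day 22 and 7.27, 4.11, 3.62 and 6.71 CPM untreated (3.52 ± 0.50, adjusted P = 0.000195). *Ifit1*, which binds viral RNA, was at 50.9, 21.04 and 20.8 CPM against 3.001 to 8.102 CPM (2.45 ± 0.44). *Igtp*, an interferon-γ-inducible GTPase, was at 248, 186 and 242 CPM against 14.7 to 20.6 CPM (3.56 ± 0.65). In all 3 genes every day 22 sample lay above every untreated sample, as in 25.2% of all tested genes. Replicate 1 was the highest in each. *Zbp1*, a sensor of Z-form nucleic acids, rose by 3.82 ± 0.53. The member that did not pass was *Mx2*, with a log2 fold change of 1.31 and an adjusted P of 0.0739. All 11 tested guanylate-binding protein genes rose, although their sequences are alike enough to share reads. Of these, *Gbp2*, *Gbp3*, *Gbp4*, *Gbp5* and *Gbp7* are already counted in the interferon list. Summed over the list, day 22 samples held 1933 to 3238 CPM and untreated samples 389 to 507 CPM, and 18 members were still called without replicate 1.

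Promoters of these genes were searched for motifs through which interferon acts, and some windows that held a match are printed here. The interferon-stimulated response element core TTTCNNTTTC, searched on both strands in RefSeq promoters of GRCm38.p6 (250 bases before to 50 bases after each gene's start), lay in 14 of 20 windows of the list (70.0%; windows were found for 18 of its 25 genes), against 3.44% of all 32851 windows. The gamma-activated site core TTCNNNGAA lay in 6 of the 20 (30.0%), against 8.30% of all windows. The 250 bases before the start of 5 genes that rose and held a match follow, in the direction of transcription. Matches to either core are in capitals, and *B2m* is not a member of the interferon list. Overlapping matches run together in *Isg15*, and the capitals in *Igtp* mark first the gamma-activated core and then the response element core. The windows are chr4:156200819-156201068 (minus strand) for *Isg15*, chr19:34640639-34640888 (plus) for *Ifit1*, chr11:58199306-58199555 (plus) for *Igtp*, chr5:92348890-92349139 (minus) for *Cxcl10* and chr2:122147437-122147686 (plus) for *B2m*.
Isg15: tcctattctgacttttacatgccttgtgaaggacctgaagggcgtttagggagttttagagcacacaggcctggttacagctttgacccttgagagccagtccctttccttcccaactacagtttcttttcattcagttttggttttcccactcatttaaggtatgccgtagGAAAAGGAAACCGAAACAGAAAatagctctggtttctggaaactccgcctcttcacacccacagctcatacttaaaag
Ifit1: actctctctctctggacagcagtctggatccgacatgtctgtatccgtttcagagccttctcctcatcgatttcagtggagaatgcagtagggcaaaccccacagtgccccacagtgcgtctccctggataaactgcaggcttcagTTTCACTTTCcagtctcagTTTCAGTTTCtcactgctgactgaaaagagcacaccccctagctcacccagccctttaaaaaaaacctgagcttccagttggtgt
Igtp: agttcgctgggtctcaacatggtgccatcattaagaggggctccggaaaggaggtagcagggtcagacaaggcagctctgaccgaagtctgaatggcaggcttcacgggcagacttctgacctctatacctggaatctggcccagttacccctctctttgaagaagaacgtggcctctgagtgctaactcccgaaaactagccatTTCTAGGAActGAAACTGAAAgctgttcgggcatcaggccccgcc
Cxcl10: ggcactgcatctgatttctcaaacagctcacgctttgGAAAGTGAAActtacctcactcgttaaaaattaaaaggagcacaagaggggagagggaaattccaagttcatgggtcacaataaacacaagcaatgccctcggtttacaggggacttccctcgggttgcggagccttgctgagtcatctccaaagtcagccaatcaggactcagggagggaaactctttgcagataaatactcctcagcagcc
B2m: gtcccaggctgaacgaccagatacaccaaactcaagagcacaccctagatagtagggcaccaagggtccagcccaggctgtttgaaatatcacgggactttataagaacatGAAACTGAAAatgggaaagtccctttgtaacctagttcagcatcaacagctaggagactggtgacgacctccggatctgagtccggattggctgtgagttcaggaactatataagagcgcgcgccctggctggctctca

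Over all genes called in the comparison, 9.09% of the promoter windows of higher genes and 2.25% of those of lower genes held the response element core, beside 3.24% of windows of tested genes. The gamma-activated core lay in 10.6% and 5.94% of the same windows. Chemokine genes held the response element core in 3 of 22 windows and MHC class II genes in 1 of 9. The window of *Cxcl9*, which rose more than *Cxcl10*, held neither string of letters. These are matches of letters in a 300-base window and were not tested against binding.

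Antigen presentation genes rose with the interferon list. Of 23 MHC class I and peptide loading genes, a list drawn up after values had been seen, 19 were higher and 0 lower (median log2 fold change 1.40). *B2m*, the invariant light chain of class I molecules, went from 327 to 509.8 CPM to 2184, 1826 and 2337 CPM (2.20 ± 0.37, adjusted P = 0.00083). *Tap1*, the peptide transporter, and *Psmb9*, a subunit of the immunoproteasome, lie head to head in the MHC on chromosome 17 and overlap in the annotation. Strand-specific counting is not stated for these data, so reads of the overlap cannot be told apart. They rose by 3.13 ± 0.39 and 3.05 ± 0.38, with day 22 values of 245, 229 and 236 CPM and 239, 231 and 282 CPM against 20.9 to 26.8 CPM and 17.2 to 26.8 CPM. The 3 day 22 samples were within a narrow band for both. *Nlrc5*, the class I transactivator, rose by 3.43 ± 0.50 from a low level of 2.98 to 6.41 CPM. *H2-Q7*, a class Ib gene with near copies beside it, rose by 3.60 ± 0.42, and *H2-K1*, a classical class I gene, by 1.40 ± 0.29. MHC class II was higher in 7 of 11 members and lower in 0 (median 2.18), and the 7 calls were made in each fit that left out a sample. The class II chain *H2-Ab1* stood at 1192, 1184 and 1272 CPM against 157, 252, 254 and 150.1 CPM (2.35 ± 0.43, adjusted P = 0.00138), its partner *H2-Aa* rose by 2.26 ± 0.53, and *H2-DMb1*, part of the peptide exchanger, by 3.09 ± 0.42.

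Chemokine genes were higher in 16 of 30 members and lower in 0 (median log2 fold change 2.04). The CXCR3 ligands that draw T cells and NK cells were among the largest. *Cxcl9* was at 278, 173 and 255 CPM against 1.74 to 4.24 CPM (6.27 ± 0.85, adjusted P = 0.000139), *Cxcl10* at 97.7, 55.8 and 200 CPM against 1.72 to 4.63 CPM (4.90 ± 1.04, adjusted P = 0.0043), and *Cxcl11* rose by 6.07 ± 1.14. The CXCR2 ligands that draw neutrophils spread more widely across the day 22 samples. *Cxcl1* was at 13.2, 5.71 and 54.3 CPM and *Cxcl2* at 17.5, 3.42 and 45.9 CPM, with untreated maxima of 0.639 and 0.130 CPM and log2 fold changes of 4.42 ± 0.80 and 7.75 ± 1.60. Replicate 2 was the lowest and replicate 3 the highest for both of these and for *Cxcl10*. *Cxcl3* rose by 6.32 ± 1.84 (adjusted P = 0.0286) and passed in 1 of the 7 fits that left out 1 sample (highest adjusted P 0.0777).

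Of 21 cytokine genes 11 rose and 0 fell (median log2 fold change 2.58), with 6 called without day 22 replicate 1 and 7 without untreated 43-day replicate 2. *Il1b*, a myeloid alarm cytokine, was at 98.5, 42.9 and 172 CPM against 1.23 to 3.33 CPM (5.13 ± 0.99, adjusted P = 0.00213). *Il10*, which restrains inflammation, rose from 0 to 0.173 CPM to 2.67, 1.66 and 1.86 CPM (4.63 ± 0.85). *Il21* and *Il22*, lymphocyte cytokines that act on B cells and on the epithelium, had no count in any untreated sample. Against the floor of 3 counts over that group they were at least 88.6-fold higher (52 to 77 counts) and at least 50.2-fold higher (11 to 66 counts). *Il6* passed at an adjusted P of 0.0465 on 1.28, 0.439 and 2.63 CPM, and in none of the 7 fits that left out a sample (highest adjusted P 0.211).

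Marker genes of T cells and NK cells were higher in 19 of 24 members and lower in 0 (median 2.74), and their summed level was 329 to 359 CPM at day 22 against 76.2 to 111 CPM untreated. *Cd3e*, of the T cell receptor complex, was at 12.1, 13.6 and 11.3 CPM against 1.52, 1.99, 1.24 and 1.19 CPM (2.94 ± 0.56, adjusted P = 0.00193), and *Cd3d* rose by 3.24 ± 0.46. The cytotoxic granule proteases rose further. *Gzmb* was at 33.4, 33.98 and 46.3 CPM against 0.5405 to 1.51 CPM (5.16 ± 0.61), and *Gzma* at 37.2, 38.4 and 60.8 CPM against 0.248 to 1.06 CPM (5.66 ± 0.69). The checkpoint receptor *Ctla4* and the co-stimulator *Icos* rose by 5.33 ± 0.80 and 4.09 ± 0.63. Of 18 T cell receptor β variable segments 10 were higher and 0 lower.

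Neutrophil genes were higher in 11 of 16 members and lower in 0, with the largest median of any list of cell markers (4.62). The calprotectin subunits *S100a8* and *S100a9* were at 140.3, 35.8 and 176 CPM and 95.4, 25.9 and 150.2 CPM, against 0.0983 to 0.649 CPM and 0.0497 to 0.639 CPM untreated (7.98 ± 1.19 and 7.64 ± 1.24). *Ltf*, lactoferrin of the secondary granules, rose by 6.81 ± 1.29. Replicate 2 was the lowest of the day 22 samples for all 3 genes. Even its values lay above every untreated value, a separation in that direction that 25.2% of all tested genes showed. *Stfa2l1*, a stefin of neutrophils, rose by 5.77 ± 1.70 (adjusted P = 0.0305) and passed in 1 of the 7 fits that left out a sample (highest 0.127). *Ly6g*, named here after its values were seen because it defines neutrophils, was at 244, 101 and 150.3 CPM against 243, 163, 93.7 and 143 CPM and did not pass (log2 fold change 0.17 ± 0.53, adjusted P = 0.884). It belongs to a family of near copies in which reads may be shared, and its sign turned in 3 of the alternatives (-0.19 against 22-day samples alone, -0.26 without day 22 replicate 1 and -0.06 without untreated 43-day replicate 1).

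Monocyte and macrophage genes were higher in 11 of 20 members and lower in 0 (median 1.47), but only 3 were called without day 22 replicate 1. *Ccr2* and *Ly6c2*, genes of incoming monocytes, were among those that passed. *Ccr2*, the receptor that brings monocytes out of the blood, was at 84.3, 39.1 and 33.1 CPM against 5.896 to 11.7 CPM (2.52 ± 0.49, adjusted P = 0.00235). *Fcgr1*, a high-affinity IgG receptor, rose by 2.61 ± 0.53 and *Ly6c2* by 2.80 ± 0.72, neither of them past the threshold without day 22 replicate 1. The scavenger receptor *Marco* was at 6.79, 1.61 and 0.499 CPM against 0 to 0.0994 CPM, highest again in replicate 1, and passed in 6 of the 7 fits that left out a sample. *Adgre1* (F4/80), of macrophages, was at 26.6, 21.3 and 17.1 CPM against 6.34 to 13.5 CPM and did not pass (0.98 ± 0.37, adjusted P = 0.0952). Without the ribosomal term *Adgre1* passed in edgeR's test (log2 fold change 1.09, adjusted P = 0.0352).

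Plasma cell genes were higher in 10 of 15 members and lower in 0 (median 2.01), with 5 called without day 22 replicate 2 and 6 without day 22 replicate 1, untreated 22-day replicate 2 or untreated 43-day replicate 2. *Mzb1*, a chaperone of antibody assembly, rose by 3.79 ± 0.80 (adjusted P = 0.00406), and *Derl3*, of the endoplasmic reticulum disposal pathway, by 3.15 ± 0.77. *Jchain*, which joins IgA dimers, was at 1263, 1918 and 2418 CPM against 76.7, 162, 281 and 72.7 CPM (3.01 ± 0.87, adjusted P = 0.0264) and passed in 2 of the 7 fits that left out a sample (highest 0.0929). *Igkc*, the κ light chain constant region, passed at 0.0459 and in none of those fits. Among variable segments, 15 of 90 heavy chain and 19 of 92 light chain genes were higher and 0 lower, beside 9.09% and 3.47% of all genes. B cell genes had all 18 members above 0 but only *Cd72* called (median 1.68; *Cd72* 2.08 ± 0.51, lost without day 22 replicate 2). *Ms4a1* (CD20) was at 45.9, 88.5 and 120.2 CPM against 11.8 to 28.2 CPM (adjusted P = 0.165), which was not detectable beyond the spread of the fit. Without the ribosomal term 8 B cell genes were called.

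Among mast cell genes 4 of 12 rose and 1 fell, beside 9.09% and 3.47% of all genes. The 4 were *Mcpt1*, *Mcpt2* and *Cma2*, chymases of which the first pair mark mucosal mast cells, and *Hdc*, histidine decarboxylase, which neutrophils also express. *Mcpt1* was at 25.8, 10.01 and 45.3 CPM against 0.295 to 1.04 CPM (4.88 ± 1.03, adjusted P = 0.00404), *Mcpt2* rose by 4.91 ± 1.05, *Cma2* by 5.60 ± 1.15 and *Hdc* by 4.15 ± 0.98 (lost without day 22 replicate 1). The member that fell was *Kit*, the stem cell factor receptor shared with the interstitial cells of Cajal, at 16.5, 18.3 and 12.5 CPM against 30.1 to 33.5 CPM (-0.83 ± 0.19, adjusted P = 0.00689). *Kit* was also the only called gene of the 4 interstitial cell genes, where *Ano1*, a chloride channel, had a log2 fold change of -0.75 ± 0.42 (adjusted P = 0.266).

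Epithelial defence genes were higher in 14 of 22 members and lower in 0 (median 2.31), *Retnlb* and *Ang4* among them. The antibacterial C-type lectins *Reg3b* and *Reg3g* were at 7.06, 7.03 and 6.48 CPM and 15.7, 14.5 and 20.7 CPM against 0 to 0.265 CPM and 0.149 to 0.983 CPM (5.82 ± 1.38 and 4.29 ± 0.90). *Saa3*, an acute-phase serum amyloid, was at 143, 33.2 and 71.04 CPM against 0.883 to 1.38 CPM (5.77 ± 0.96, adjusted P = 0.000689). Of 17 goblet cell genes 3 were higher and 0 lower, beside 9.09% and 3.47% of all genes. Of the 3, *Retnlb* and *Ang4* are those of the defence list. The third was *Spink4*, a goblet cell protease inhibitor, at 774, 982 and 1685 CPM against 189 to 298 CPM (1.81 ± 0.34, adjusted P = 0.00177). The goblet cell products *Muc2* and *Tff3* did not pass: *Muc2*, the gel-forming mucin, was at 108, 250.1 and 242 CPM against 70.5 to 171 CPM, and *Tff3*, a trefoil peptide, at 688, 574 and 977 CPM against 693 to 1220 CPM.

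**Figure D2:**
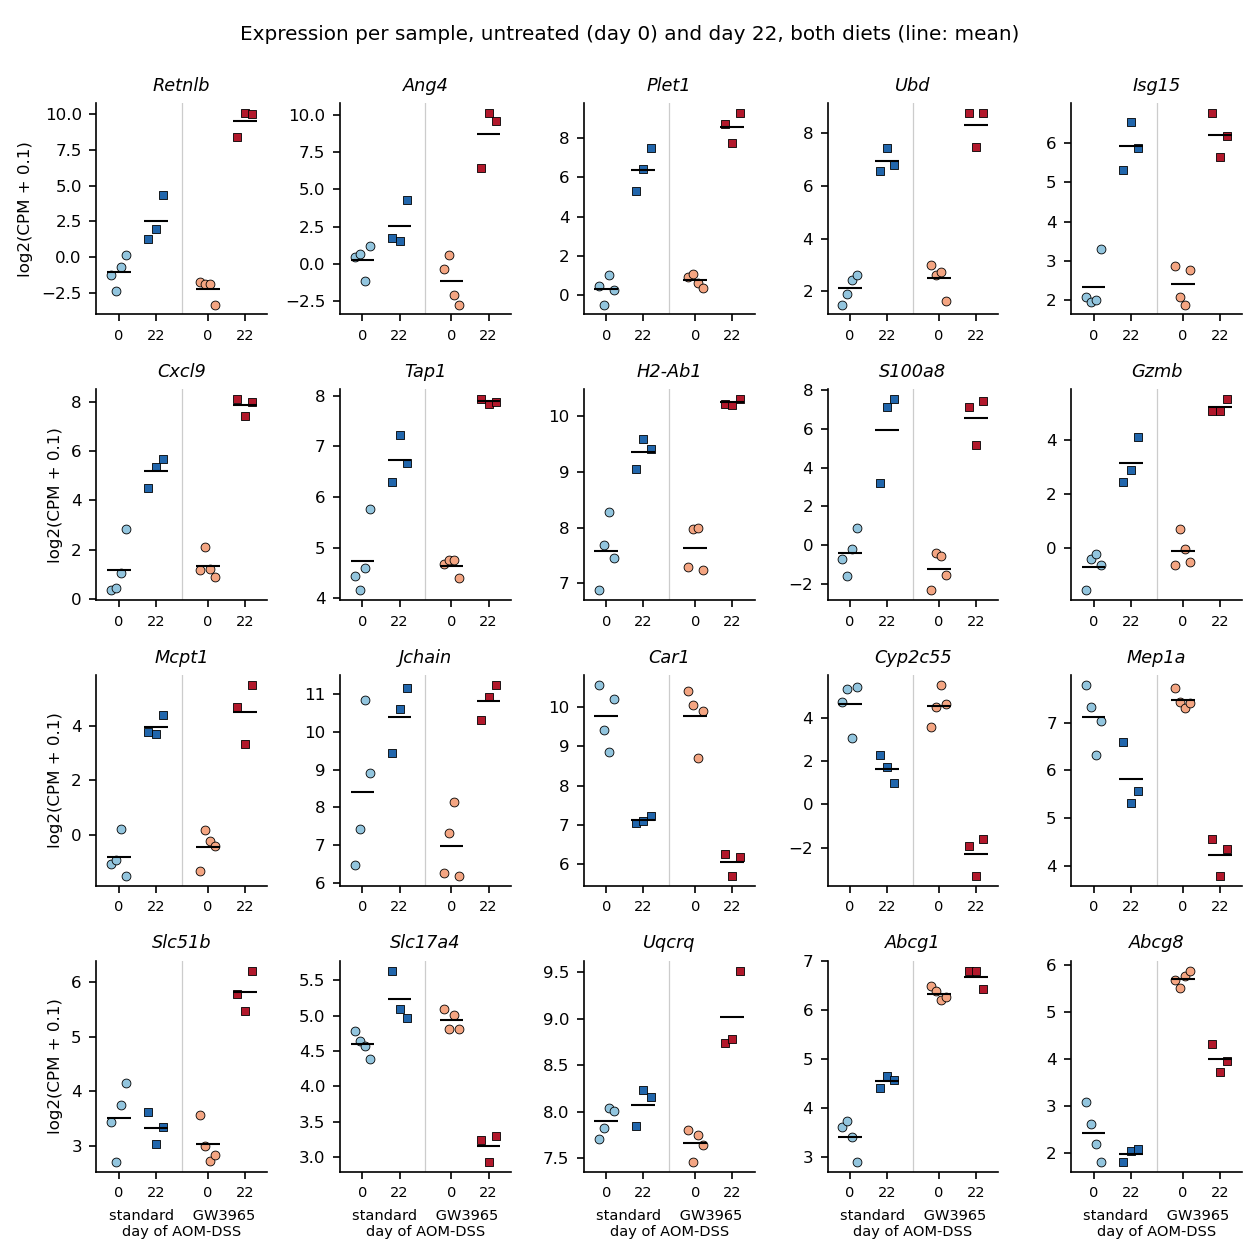
Expression of 20 genes in each untreated sample (day 0, circles) and each day 22 sample (squares) on the standard diet (blue) and the GW3965 diet (red), as log2 of CPM plus 0.1, with the group mean as a line. On the GW3965 diet the groups do not overlap in any panel except *Abcg1*, beside 48.2% of all tested genes without overlap. For *Abcg1* the day 22 values of 85.7 to 112 CPM meet untreated values of 74.0 to 89.3 CPM.

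The genes that fell with the smallest P included enzymes, transporters and signalling proteins. *Csad*, an enzyme of taurine synthesis, was at 24.4, 24.9 and 19.9 CPM against 65.01, 62.2, 63.7 and 55.4 CPM (-1.34 ± 0.14, adjusted P = 1.46e-05). *Rap2a*, a small GTPase, was at 36.5, 27.5 and 32.05 CPM against 69.8 to 77.5 CPM (-1.12 ± 0.13), and *Slc5a6*, the sodium-dependent multivitamin transporter, at 8.72, 11.04 and 10.7 CPM against 38.3 to 52.7 CPM (-1.94 ± 0.25). These genes were likewise ranked by P among those whose groups did not overlap. *Xpr1*, a phosphate exporter, fell by 0.96, *Oat*, ornithine aminotransferase, by 1.64, *Cpm*, carboxypeptidase M, by 1.62, *Mettl7b* by 2.80 and *Fam171a1* by 1.17 on the log2 scale. *Osbpl6*, an oxysterol-binding protein homologue, and *Syn2*, a synapsin, fell by 1.73 and 1.69.

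The largest falls were near-complete. *Cyp2c55* (chr19:39007019-39042693), a cytochrome P450 of the colon, went from 11.8, 22.5, 45.99 and 25.1 CPM to 0.161, 0 and 0.227 CPM (-7.06 ± 0.93, adjusted P = 0.000111), which is 3, 0 and 5 counts at day 22. *Itih2*, a heavy chain of the inter-α-trypsin inhibitor, went from 14.2 to 16.1 CPM to 1.02, 0.732 and 0.907 CPM (-3.75 ± 0.55), and *Klb*, β-klotho, a co-receptor of FGF hormones, from 7.15 to 15.6 CPM to 0.374, 0.439 and 1.09 CPM (-3.97 ± 0.81). No day 22 value of the 3 genes reached an untreated value, and the groups did not overlap for 48.2% of all tested genes. *Mettl7a2* fell by 3.70 and *Klk15*, a kallikrein, by 4.13 on the log2 scale, the second lost without day 22 replicate 1.

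Absorptive colonocyte genes were lower in 6 of 24 and higher in 2 (median log2 fold change -0.76), beside 3.47% and 9.09% of all genes. Their summed level was 2580 to 3409 CPM at day 22 against 4271 to 8673 CPM untreated. The 8 calls were 5 without day 22 replicate 1 or replicate 2. *Car1*, carbonic anhydrase 1, was at 76.9, 51.7 and 72.2 CPM against 1352, 1063, 417 and 952 CPM (-3.52 ± 0.55, adjusted P = 0.000428). *Mep1a*, a brush border metalloprotease, was at 23.5, 13.6 and 20.2 CPM against 159 to 213 CPM (-2.99 ± 0.53), and *Sult1a1*, a phenol sulfotransferase, fell by 2.24. *Slc26a3*, the chloride-bicarbonate exchanger, had all 3 day 22 values (194, 132 and 208 CPM) below the untreated range of 493 to 1012 CPM and did not pass (-1.77 ± 0.74, adjusted P = 0.128). The 2 members that rose moved against the list. *Slc51b*, the β subunit of the basolateral exporter of bile acids, was at 55.4, 44.5 and 74.2 CPM against 6.53 to 11.8 CPM (2.59 ± 0.59, adjusted P = 0.00647), and *Tmigd1*, an epithelial adhesion protein, passed at 0.0401 but in none of the fits that left out a sample.

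Bile acid handling genes were split, with 2 of 9 higher and 1 lower, beside 9.09% and 3.47% of all genes. Beside *Slc51b*, *Fabp6*, the cytosolic bile acid carrier of the ileum, was higher at 64.7, 35.1 and 68.2 CPM against 11.9 to 23.2 CPM (1.92 ± 0.49, adjusted P = 0.0143; lost without day 22 replicate 1). *Vdr*, the vitamin D receptor that also senses secondary bile acids, was lower at 94.8, 95.02 and 87.4 CPM against 248 to 384 CPM (-1.41 ± 0.43, adjusted P = 0.0379) and passed in 1 of the 7 fits that left out a sample (highest 0.16). *Slc10a2*, the apical importer, was at 10.1, 2.49 and 2.72 CPM against 13.2 to 31.9 CPM (adjusted P = 0.0582).

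Fatty acid oxidation genes were lower in 6 of 20 members and higher in 0 (median -0.54), beside 3.47% and 9.09% of all genes. Their changes were modest: *Acaa2*, a thiolase, fell by 0.80, *Acadvl*, the very long chain acyl-CoA dehydrogenase, by 0.55 and *Hadhb*, of the trifunctional protein, by 0.46 on the log2 scale. *Ppara*, the nuclear receptor that switches on this pathway, was at 1.87, 1.95 and 1.41 CPM against 5.85 to 6.81 CPM (-1.66 ± 0.50, adjusted P = 0.032). *Cpt1a*, the carnitine transferase, was at 84.1, 83.7 and 68.7 CPM against 141 to 168 CPM (adjusted P = 0.0749) and did not pass. The count was 13 without the ribosomal term, 3 without untreated 22-day replicate 1, 2 without untreated 43-day replicate 1 and 1 without day 22 replicate 1 or replicate 2. Xenobiotic metabolism genes were lower in 5 of 29 members and higher in 1 (median -0.56), beside the same shares of all genes. Calls numbered 1 without day 22 replicate 1 and 3 without untreated 43-day replicate 2. *Cyp2c65* fell by 3.33 and the sulfotransferase *Sult1c2* by 2.24 (both lost without day 22 replicate 1), and *Cyp2f2* was at 1.02, 1.12 and 1.13 CPM against 14.4 to 22.96 CPM (-3.33 ± 1.00, called in 3 of the 7 fits that left out a sample). The member that rose was the glutathione transferase *Gsta1* (1.37 ± 0.35, adjusted P = 0.0146; lost without day 22 replicate 1 or untreated 43-day replicate 2), whose near copies may share its reads.

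Of 18 LXR pathway genes 3 were lower and 1 was higher (median -0.27), beside 3.47% and 9.09% of all genes. Their summed level was 3773 to 4775 CPM at day 22 against 4974 to 6471 CPM untreated. *Abca1* and *Abcg1*, which export cholesterol to lipoproteins, were at 105, 137 and 91.2 CPM and 112, 111 and 85.7 CPM against 113, 148, 132 and 152 CPM and 89.3, 83.3, 74.02 and 76.5 CPM (log2 fold changes -0.26 ± 0.26 and 0.44 ± 0.26, adjusted P = 0.564 and 0.301). The apical sterol exporter is a dimer of *Abcg5* and *Abcg8*, divergent genes that overlap in the annotation and may likewise share reads. *Abcg8* was at 20, 13.2 and 15.6 CPM against 51.5, 45.5, 54.4 and 59.1 CPM (-1.72 ± 0.41, adjusted P = 0.00882; 0.0544 without day 22 replicate 2), and *Abcg5* at 62.3, 30.2 and 53.2 CPM against 111 to 138 CPM (-1.40 ± 0.41, adjusted P = 0.03, called in 2 of the 7 fits that left out a sample). For both genes every day 22 sample lay below every untreated sample. The groups did not overlap, in either direction, for 48.2% of all tested genes. *Srebf1*, the regulator of fatty acid synthesis, was at 320.4, 345 and 277 CPM against 495 to 555 CPM (-0.67 ± 0.19, adjusted P = 0.0222, called in 4 of the 7 such fits). *Ch25h*, which makes 25-hydroxycholesterol and is an interferon target, rose from 1.501 to 2.83 CPM to 3.96, 4.15 and 7.798 CPM (1.16 ± 0.35, adjusted P = 0.0348), and *Cyp27a1*, which makes 27-hydroxycholesterol, was at 15.6, 14.99 and 14.1 CPM against 25.6 to 30.4 CPM and did not pass (-0.94 ± 0.36, adjusted P = 0.0999). Of the 4 calls, 2 were left without day 22 replicate 3, untreated 22-day replicate 1 or untreated 43-day replicate 1, 1 without day 22 replicate 1 and 0 without day 22 replicate 2. Of 24 cholesterol synthesis and uptake genes 1 rose and 0 fell (median 0.53, with 20 members above 0). It was *Pmvk*, phosphomevalonate kinase (1.13 ± 0.28, called in 4 of the 7 such fits). The count was 4 without untreated 22-day replicate 1 and 0 without day 22 replicate 1 or either 43-day untreated sample.

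The counts for genes of crypt renewal stand beside 9.09% of all genes called higher and 3.47% called lower. Of 20 stem cell and Wnt target genes 0 rose and 1 fell (median -0.62, with 17 members below 0), and their summed level was 850.1 to 982 CPM at day 22 against 1252 to 1409 CPM untreated. The gene that fell was *Ephb3*, a receptor that positions crypt cells, at 16.7, 23.4 and 17.2 CPM against 30.9 to 45.01 CPM (-0.96 ± 0.25, adjusted P = 0.0167; lost without day 22 replicate 1). *Lgr5*, the stem cell receptor, was at 1.39, 3.96 and 2.403 CPM against 4.96, 10.3, 5.83 and 5.17 CPM (-1.54 ± 0.84, adjusted P = 0.255), and *Ascl2*, its transcription factor, at 6.47, 6.49 and 4.22 CPM against 7.21 to 18.8 CPM (adjusted P = 0.241). Every day 22 value of both genes was below every untreated value, a separation that 48.2% of all genes showed. Cell cycle genes had 2 of 24 members called, both higher, *Birc5* (survivin, 1.20 ± 0.32) and *Rrm2* (ribonucleotide reductase, 1.63 ± 0.48), which passed in 5 of the 7 and 1 of the 7 fits that left out a sample. The count was 0 without day 22 replicate 2 or untreated 43-day replicate 1 and 1 without any other sample but day 22 replicate 3. The list had a median of 0.51, with 23 members above 0, and a summed level of 915 to 1232 CPM at day 22 against 649 to 740.5 CPM untreated. *Mki67* was at 60.9, 89.2 and 58.3 CPM against 46.4 to 65.02 CPM (adjusted P = 0.221). Fetal-like regenerative genes were higher in 2 of 19 and lower in 0. These were *Ly6a* (Sca-1), at 1656, 1074 and 1545 CPM against 178 to 318 CPM (2.56 ± 0.39, adjusted P = 0.000307), and *Ly6c1* (2.25 ± 0.31), both of which interferon also raises in many cells. *Anxa1* of the same list was at 517, 310 and 378 CPM against 196 to 309.8 CPM (adjusted P = 0.288).

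Beside 9.09% of all genes called higher and 3.47% lower, 1 of 11 EGFR ligands and ERBB receptors rose and 0 fell (median -0.04). It was *Epgn*, epigen, at no more than 0.695 CPM (3.05 ± 0.85, adjusted P = 0.023, called in 3 of the 7 fits that left out a sample). *Areg*, amphiregulin, the ligand named in the study's question, was at 35.2, 15.2 and 49.3 CPM against 31.8, 17.5, 4.19 and 10.4 CPM (1.05 ± 0.69, adjusted P = 0.36), and the groups overlapped. *Ereg*, epiregulin, was at 12.8, 11.3 and 15.8 CPM against 5.06 to 10.04 CPM (adjusted P = 0.416).

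The counts for rarer epithelial types and for prostaglandin genes stand beside 9.09% of all genes called higher and 3.47% called lower. Tuft cell genes rose in 3 of 13 members and fell in 0 (median 0.47). Their summed level was 104 to 123 CPM at day 22 against 52.3 to 69.3 CPM untreated. Among them *Matk*, a kinase also found in blood cells, rose by 1.35 ± 0.32 and *Sh2d6* by 1.75 ± 0.51 (called in 2 of the 7 fits that left out a sample). Enteroendocrine genes rose in 1 of 18, *Cck* at 2.03, 0.928 and 2.27 CPM (1.61 ± 0.51, called in 1 of the 7 such fits), and fell in 2, the granule protein *Scg2* (-1.11 ± 0.27) and the calcium-binding *Scgn* (-1.30 ± 0.39, called in 2 of the 7 such fits). These 3 calls were 0 without day 22 replicate 1 and 1 without day 22 replicate 3, either 22-day untreated sample or untreated 43-day replicate 2. Of 20 prostaglandin and lipoxygenase genes *Tbxas1*, thromboxane synthase, rose by 1.27 ± 0.35 and *Hpgd*, which degrades prostaglandins, fell by 1.29 (56.4, 69.2 and 75.6 CPM against 145 to 201 CPM), called in 3 of the 7 and 4 of the 7 such fits.

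Matrix genes of the wall gave 0 calls among 25 collagen and matrix genes (median -0.27), with or without the ribosomal term, and *Col1a1* was at 112, 104 and 71.1 CPM against 79.3 to 144 CPM (0.08 ± 0.47, adjusted P = 0.944). Proteases moved more: of 17 matrix metalloproteinases and inhibitors 5 rose and 2 fell, beside 9.09% and 3.47% of all genes. *Mmp7*, matrilysin of the epithelium, was at 13.9, 8.59 and 18.7 CPM against 0.0441 to 0.344 CPM (5.75 ± 1.26, adjusted P = 0.00522). *Mmp10*, *Mmp9* and *Mmp3*, of epithelium, neutrophils and fibroblasts, rose by 3.77 ± 0.87, 2.49 ± 0.64 and 2.44 ± 0.68, and the inhibitor *Timp1* by 1.72 ± 0.54 (called in 2 of the 7 fits that left out a sample). *Mmp15* and *Timp4* fell by 1.14 and 1.48 on the log2 scale. The count of 7 was 1 without day 22 replicate 1, 3 without replicate 2 and 4 without untreated 43-day replicate 2.

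Markers of the deeper wall and of neighbouring tissues were measured over whole lists because biopsies can differ in depth. Their counts stand beside 9.09% of all genes called higher and 3.47% called lower. Smooth muscle genes gave 0 calls among 17, with summed levels of 13350 to 16270 CPM at day 22 inside the untreated span of 9049 to 23620 CPM. Endothelial (14), enteric glia (10), skeletal muscle (14), red blood cell (7) and mesothelial (5) genes gave 0 calls each, with medians of -0.41, -0.52, 1.17, 0.81 and -0.24. Summed levels of the endothelial genes (216 to 294 CPM at day 22 against 324 to 396 CPM untreated), enteric glia genes (177 to 189 CPM at day 22 against 279 to 356 CPM untreated) and mesothelial genes (1343 to 1469 CPM at day 22 against 1744 to 2775 CPM untreated) were lower at day 22 without overlap, while those of the skeletal muscle and red blood cell genes overlapped. Without the ribosomal term 3 endothelial and 2 glia genes were called lower and 1 endothelial gene higher. Enteric neuron genes fell in 2 of 14, the synaptic *Snap25* (-1.32 ± 0.33) and *Syt1* (-1.54 ± 0.44), and rose in 1, *Tac1*, the substance P precursor, at 105, 63.7 and 96.8 CPM against 19.8 to 28.2 CPM (1.66 ± 0.50, called in 1 of the 7 fits that left out a sample). The 2 that fell were 4 without untreated 22-day replicate 1 or without the ribosomal term, 1 without day 22 replicate 3 or untreated 43-day replicate 2 and 0 without day 22 replicate 1. Adipocyte genes fell in 1 of 10, *Pck1*, a gluconeogenic enzyme that gut epithelium also makes (-2.34 ± 0.57, lost without day 22 replicate 1). Of 2 tested pancreatic acinar genes *Cela1*, an elastase, fell from 585 to 788 CPM to 189.5, 177 and 247 CPM (-1.91 ± 0.37). Squamous epithelium genes rose in 1 of 16, *Sprr1a* (0 without day 22 replicate 1 or either 43-day untreated sample), and colon position genes fell in 1 of 9, *Hoxb13* (-1.16 ± 0.34, called in 3 of the 7 such fits). The part of biopsy depth and position in the other results was not tested.

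Calls followed transcript length. Of 10 classes of genes equal in number, the shortest (38 to 982 bases) had a median log2 fold change of 0.47, with 300 genes higher and 12 lower, and the median fell through each class to -0.30 in the longest (5869 bases and above), with 33 higher and 121 lower. The gradient was steeper without the ribosomal term (0.69 to -0.42) and shallower on the standard diet (0.21 to -0.16). Nuclear subunits of the respiratory chain, a list drawn up after values had been seen, were higher in 14 of 74 and lower in 1 with the term, and 28 and 1 without it. The count of 15 was 16 without untreated 22-day replicate 1 and 7 to 9 without any other of the 7 samples. The RNA integrity numbers and the ribosomal and mitochondrial percentages given above moved with the groups. Their part in this gradient was not tested.

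**Figure D3:**
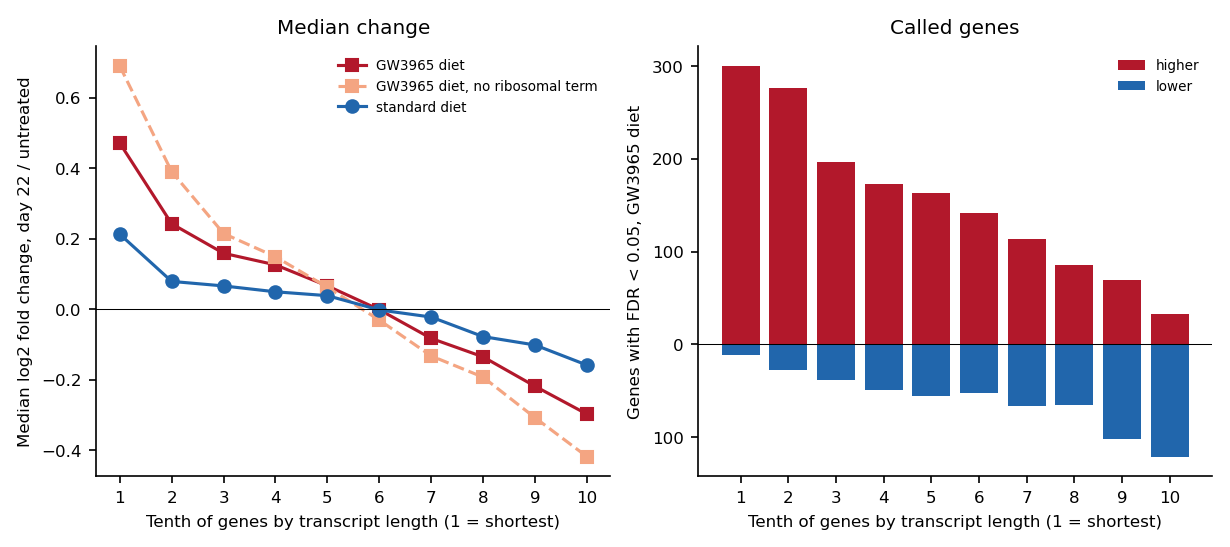
Change at day 22 in 10 equal classes of genes ordered by transcript length (1 = shortest). The left panel gives the median log2 fold change on the GW3965 diet with and without the ribosomal term and on the standard diet, and the right panel the number of genes called higher and lower on the GW3965 diet: the median falls from 0.47 to -0.30 and the called genes from 300 higher and 12 lower to 33 higher and 121 lower.

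The same contrast on the standard diet (3 day 22 samples of cage A against 4 untreated samples of cage E, no sample shared) called 1310 genes (7.68%), 1047 higher (6.14%) and 263 lower (1.54%). Of the genes called on both diets, 846 in all (39.5% of the GW3965 calls and 64.6% of the standard calls), 844 moved the same way. Among the 2141 genes called on the GW3965 diet, 2020 (94.4%) had the same sign on the standard diet, beside 74.4% of all tested genes, and 1796 (83.9%) had the larger size on the GW3965 diet. That figure favours the diet on which the genes were called, and among the 1310 called on the standard diet 806 (61.5%) were larger there. Spearman's rho of the log2 fold changes over the 17047 genes was 0.649, a description across genes that are not independent replicates and share library depth and the ribosomal term.

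The lists differed in their counts between the diets, although no list was tested for that difference. Over all tested genes 6.14% were higher and 1.54% lower on the standard diet, against 9.09% and 3.47% on the GW3965 diet. Interferon-stimulated genes were higher in 16 of 25 on the standard diet against 24, and antimicrobial genes in 5 of 22 against 14. Plasma cell genes were higher in 1 of 15 against 10, and MHC class II genes in 5 of 11 against 7. Guanylate-binding proteins, some of them members of the interferon list, were higher in 3 of 11 against 11. Median log2 fold changes on standard and GW3965 diet were 1.71 and 2.45 for the interferon list and 1.97 and 2.31 for antimicrobial genes. They were 0.88 and 2.01 for plasma cell and 1.68 and 2.18 for MHC class II genes. Neutrophil genes (12 against 11), cytokines (11 against 11), chemokines (14 against 16) and macrophage genes (10 against 11) were close in number. Collagen and matrix genes were higher in 7 of 25 on the standard diet and in 0 on the GW3965 diet, and fetal-like regenerative genes in 7 of 19 against 2. Of the respiratory chain subunits 16 of 74 fell on the standard diet, where 14 rose on the GW3965 diet. Some untreated standard samples stood apart: 43-day replicate 2 summed to 832 CPM over the interferon list, where the other 3 held 359 to 427 CPM, and 43-day replicate 1 to 11040 CPM over the plasma cell list, where the others held 1416 to 4146 CPM. Their part in these counts was not tested.

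The test of the difference itself, the GW3965 response minus the standard response, called 4 genes (0.0235% of those tested), each with an adjusted P of 0.0424. Of these 3 were more positive on GW3965 (0.0176%) and 1 was more negative (0.00587%). At an unadjusted P below 0.05 there were 1063 of 17047 genes, where chance alone gives a share of 0.05. *Retnlb* reached 336 to 1093 CPM at day 22 on the GW3965 diet, against 2.26, 3.82 and 20.01 CPM on the standard diet (untreated 0.0945 to 0.991 CPM). Its difference was 8.10 ± 1.39 log2 units, and all GW3965 day 22 samples exceeded all standard day 22 samples. *Slc17a4*, an intestinal organic anion and phosphate transporter, fell on the GW3965 diet from 34.1, 28.1, 31.9 and 28.04 CPM to 9.36, 7.52 and 9.75 CPM (-1.97 ± 0.34), whereas on the standard diet it was at 49.6, 34.1 and 31.1 CPM against 20.9 to 27.4 CPM (0.54 ± 0.30, adjusted P = 0.333), a difference of -2.52 ± 0.43. *Uqcrq*, a subunit of respiratory complex III, was at 428, 439.6 and 733 CPM against 175 to 222 CPM on GW3965 and 229, 299.5 and 284 CPM against 209 to 264 CPM on standard diet, a difference of 1.06 ± 0.17. *Ndufb6*, of complex I, was at 122, 133 and 207 CPM against 68.1 to 80.9 CPM and 69.8, 85.9 and 83.7 CPM against 78.6 to 99.4 CPM, a difference of 1.02 ± 0.17. For both subunits the sample of highest ribosomal percentage, GW3965 day 22 replicate 3, was the highest.

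These 4 calls were fragile. Of the 23 alternatives run for the difference, *Uqcrq* passed in 9 and the other three in 6 each, and without the ribosomal term none passed (adjusted P 0.735 for *Uqcrq*, 0.713 for *Ndufb6*, 0.126 for *Retnlb* and 0.142 for *Slc17a4*). No fit that left out GW3965 day 22 replicate 2 or replicate 3 called any gene, and 9 were called without replicate 1. The log2 difference kept its sign in all 23, from 6.51 to 9.72 for *Retnlb* and from -2.68 to -2.21 for *Slc17a4*. Several large contrasts between the diets did not pass: *Ang4* (3.28, 2.75 and 19.8 CPM at day 22 on the standard diet; difference 7.19 ± 1.66, adjusted P = 0.226), *Fabp6* (4.46, 1.43 and 1.96 CPM; 3.00 ± 0.68, adjusted P = 0.221), *Slc51b* (12.3, 8.06 and 10.03 CPM; 2.96 ± 0.79, adjusted P = 0.314), *Cyp2c55* (4.68, 3.16 and 1.86 CPM; -4.27 ± 1.05, adjusted P = 0.263) and *Klk15* (6.505, 7.14 and 15.97 CPM; -4.38 ± 1.16, adjusted P = 0.311). For genes such as *Isg15* and *S100a8* the differences were small beside their errors (0.28 ± 0.66 and 1.02 ± 1.44).

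**Figure D4:**
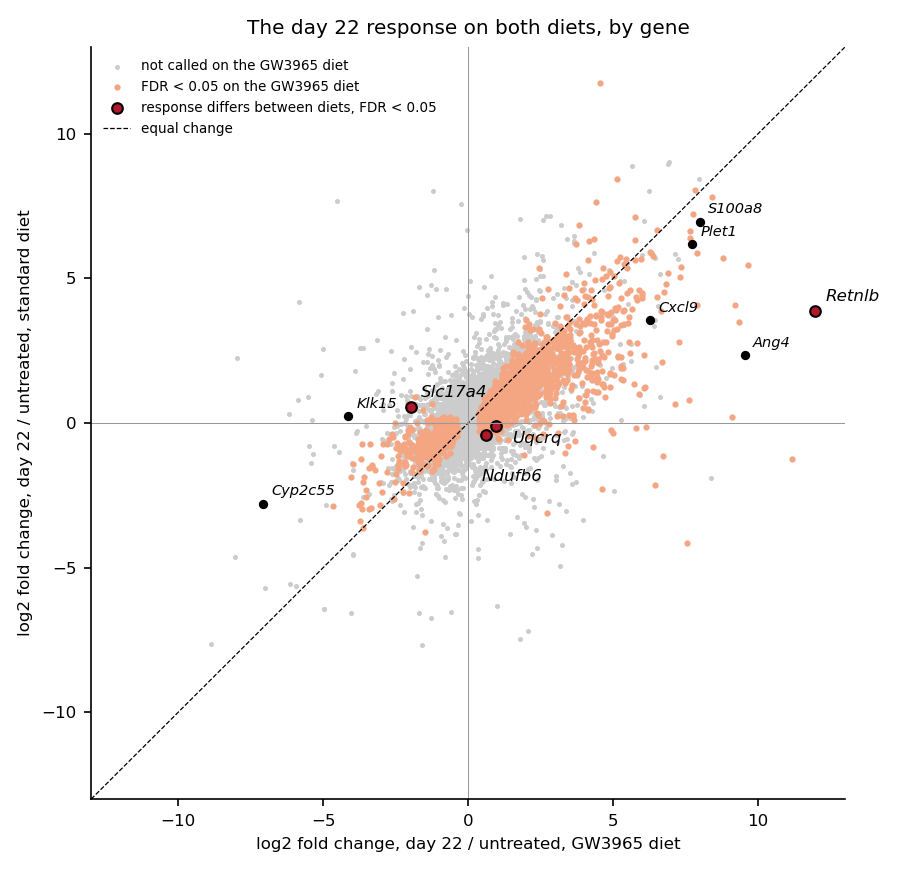
Log2 fold change at day 22 for each of the 17047 tested genes on the GW3965 diet (horizontal) and the standard diet (vertical). Genes called on the GW3965 diet are in orange, and the 4 genes called for a difference between the diets, none of them without the ribosomal term, are in dark red. Most orange points share the sign of the standard diet (94.4%), and *Retnlb* lies farthest below the line of equal change among the 4.

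Later timepoints on the GW3965 diet, after further DSS cycles, give these genes a course. *Retnlb* averaged 821 ± 421 CPM (SD, n = 3) at day 22, 125 ± 119 CPM at day 43 and 23.1 ± 16.4 CPM at day 70, and on the standard diet 8.696 ± 9.83, 29.1 ± 6.47 and 39.8 ± 11.2 CPM. The mean on the GW3965 diet was thus highest at day 22, with overlapping spreads thereafter. *Plet1* averaged 419.8 ± 202, 307 ± 133 and 237 ± 146 CPM on the GW3965 diet. *Isg15* averaged 76.7 ± 29.4, 66.4 ± 39.1 and 12.9 ± 6.404 CPM, *Jchain* 1866 ± 579, 5798 ± 3738 and 831 ± 944 CPM, and *Abcg8* 16.3 ± 3.44, 22.8 ± 3.49 and 34.9 ± 24.9 CPM. *Car1* averaged 66.95 ± 13.4, 97.7 ± 46.3 and 68.98 ± 38.1 CPM against 946 ± 391 CPM untreated (n = 4). These later values are a description and were not tested here.

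**Figure D5:**
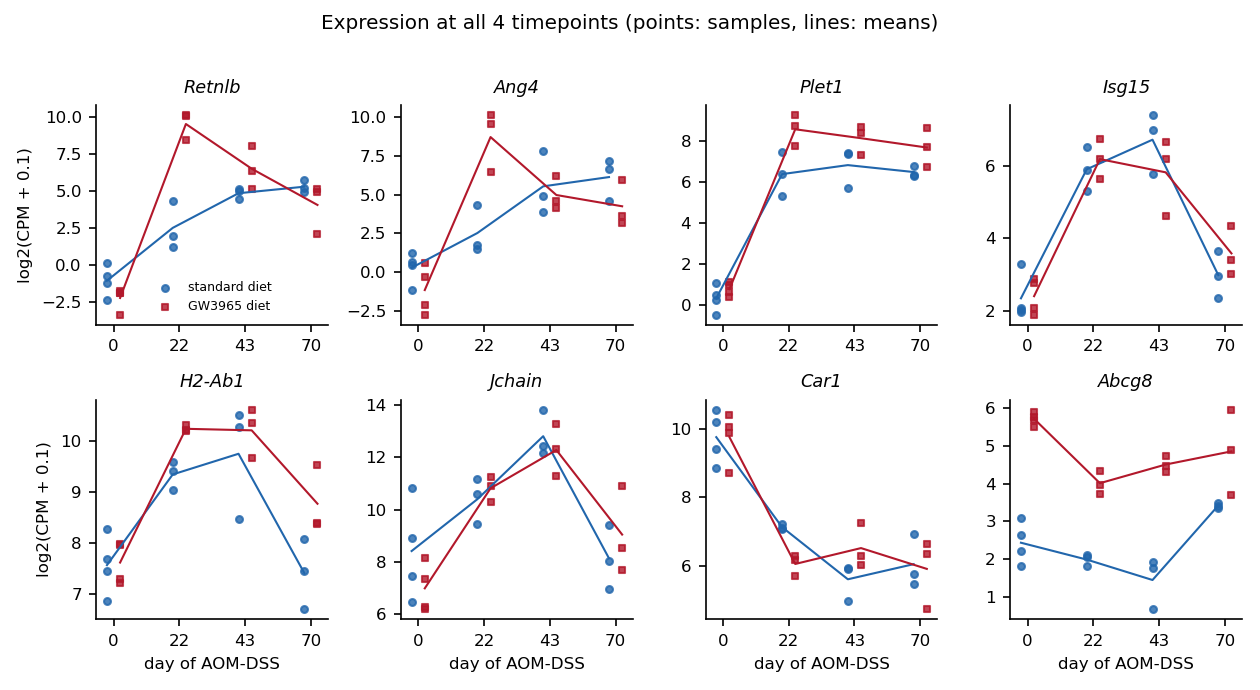
Expression of 8 genes at days 0 (untreated), 22, 43 and 70 in every sample of the standard diet (blue circles) and the GW3965 diet (red squares), as log2 of CPM plus 0.1, with lines through the group means of that quantity. *Retnlb* and *Ang4* peak at day 22 on the GW3965 diet, and *Abcg8* stays above the standard diet at each timepoint. A standard diet sample of day 43 had an RNA integrity number of 2.6.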

How the data were processed

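Distal colon RNA was sequenced as paired-end reads. The authors deposited transcript tables of estimated counts made with kallisto on GRCm38, as the submitters' processing notes name them; versions are not given in the sources used here. For the present report, 97.68% of 119414 transcripts were matched to GENCODE genes, counts were summed per gene (35896 genes) and rounded, and unmatched transcripts held 0.701 to 1.021% of a library. Totals were 18195345 to 41522204 over 26 samples (median 20424701), and 0 pairs of samples were identical.

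Groups followed sample titles, with 22 and 43 diet days pooled as day 0. edgeR 4.0.16 (R 4.3.3) normalised by TMM, kept 17047 genes by filterByExpr and fitted its quasi-likelihood model to 8 groups of diet and time plus the centred percentage of counts on 88 ribosomal protein genes. P-values were adjusted by Benjamini-Hochberg over all genes, with a threshold of 0.05. CPM values were TMM-normalised without the ribosomal term, so log2 fold changes need not equal ratios of CPM. The standard error is the absolute log2 fold change divided by the square root of F. Counts of 0 over a group were set to a floor of 3 counts, which covers counting error only.

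Named genes were the 12 of smallest P and the 5 of largest change in each direction (non-overlapping samples or a mean CPM of at least 5 in the higher group), up to 4 called members per list and direction with the first 2 members of each list, the genes whose response differed between diets, and *Areg*, *Cyp27a1*, *Abca1*, *Abcg1* and *Lgr5*. Predicted, non-coding and antigen receptor segment genes were left out of the ranked sets. Some genes that the rule named are not reported here. Members and lists were chosen with earlier results of these data known, and the MHC class I, small proline-rich and respiratory chain lists after values had been seen. The scripts were tested on simulated data. A gene that did not pass may still have differed.

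Replicate numbers were checked for pairing: the deviations of same-numbered day 22 and untreated samples correlated between -0.0358 and 0.0424, so the numbers only name samples. Alternatives were DESeq2 1.42.0, RLE size factors, no filter, no ribosomal term, only the samples of the comparison, either set of untreated samples, a replicate block, and each sample left out. Promoters came from RefSeq GRCm38.p6.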

Additional observations from a re-analysis of the deposited data

Results flagged for a closer look

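The test of the difference itself called 4 genes, each at an adjusted P of 0.0424 in edgeR's quasi-likelihood test. The difference (GW3965 response minus standard response) was 1.06 log2 units for *Uqcrq*, 1.02 for *Ndufb6*, 8.10 for *Retnlb* and -2.52 for *Slc17a4*. Of the 23 alternatives *Uqcrq* passed in 9 and each of the others in 6, and none of these genes passed without the ribosomal term.

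Among 152 named genes, 16 had an untreated GW3965 sample that stood apart from the other 3 by Dixon's ratio at its 95% critical value, where chance flags about 1 in 20. The flags were spread over all 4 untreated samples. In 22-day replicate 1, *Hoxb13* (748 CPM), *Tff3* (1220 CPM), *Sult1a1* (269 CPM) and *Pmvk* (40.8 CPM) were the highest. In 22-day replicate 2, *Lgr5* (10.3 CPM) and *Sprr2h* (0.173 CPM) were the highest and *Cyp2f2* (14.4 CPM) the lowest. In 43-day replicate 1, *Derl3* (1.28 CPM), *Reg3b* (0.265 CPM) and *Cma2* (0.0441 CPM) were the highest and *Tmigd1* (0.221 CPM) the lowest. In 43-day replicate 2, the sample with the conflicting diet label, *Sult1c2* (48.5 CPM) and *Stfa2l1* (0.0497 CPM) were the highest, and *Psmb9* (17.2 CPM), *Zc3h12a* (17.4 CPM) and *Retnlb* (0 CPM) the lowest. For *Sprr2h*, *Reg3b*, *Cma2* and *Stfa2l1* the other 3 samples held 0 CPM, so any count set the flag and the rate of 1 in 20 does not apply. *Cma2* and *Stfa2l1* rested on 1 count each, and *Retnlb* on 0 counts against 4 in each of the other samples. Day 22 groups of 3 were not tested.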

How the results depend on the processing

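The count of called genes on the GW3965 diet (2141) was 3516 without the ribosomal term (2321 higher, 1195 lower), 7200 from its own 7 samples with no covariate, 4023 from those samples with the ribosomal term, 400 against untreated samples of 22 diet days, 878 against those of 43 diet days, and 910 to 1718 with 1 sample left out. It stayed within 1.5 times with DESeq2 (2923), RLE size factors (2136), no filter (1692) and the replicate block (1954, of which 1883 were called without the block). The standard diet count (1310) was 2090 and 32 from its own samples without and with the ribosomal term, 2022 with DESeq2, 364 and 153 against 22-day and 43-day untreated samples, and 419 to 1389 with 1 sample left out; the block gave 1213. The count for the difference between diets (4) was 0 in edgeR without the ribosomal term, against 22-day samples and with the replicate block, and 106 in DESeq2. In edgeR's fit with the term and without the block, 1063 of 17047 genes had an unadjusted P below 0.05, where chance alone gives a share of 0.05. The count was 14 and 17 from the samples of both diets without and with the ribosomal term, 8 against 43-day samples, and 0 to 9 with 1 sample left out. The causes were not tested; fewer samples, or a spread estimated from fewer groups, enter several of these fits.

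Of the named genes, *Col1a1* turned sign without the ribosomal term (-0.17), in its own samples with no covariate (-0.18) and without untreated 22-day replicate 1 (-0.045; -0.045 to 0.20 with 1 sample left out), and *Ly6g* against 22-day samples (-0.19), without day 22 replicate 1 (-0.26) and without untreated 43-day replicate 1 (-0.06; -0.26 to 0.47 with 1 sample left out); neither was called. Of 156 fold changes of named genes, 71 lost their call against 22-day samples, 43 against 43-day samples, 45 without day 22 replicate 1 and 3 under the block.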
